A study of Arabidopsis thaliana with 10 samples.

Results

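CSLA01 (AT4G16590) encodes a cellulose synthase-like protein of the A family, the plant family of glucomannan synthases. It was measured by 1 probe set, 245465_at, of 22810 on the array and of 13513 that the platform's gene table assigns to a single gene, 13350 genes in all. The probe set was taken because that table assigns it to CSLA01 alone. The gene itself was chosen by its measured levels on these arrays, which were known to differ between the groups. Its levels and differences are therefore given as a description, with no test.

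The arrays measured transcripts in pooled inflorescences of Arabidopsis thaliana with their young buds. The klu-2 allele was present in every group, as was a 2-part ethanol switch, 35S::AlcR with AlcA, in which the broadly active 35S promoter supplies the regulator AlcR and ethanol vapour lets it turn on the AlcA promoter. In some lines AlcA drove wild-type KLU, the CYP78A5 enzyme that promotes growth of floral organs, and in others a mutant KLU protein that the study used as a control (KLUmut). Wild-type KLU lines 3-1 and 4-3 were sampled at 0 min, without vapour, and at 90 and 240 min of vapour. Mutant KLU lines 1-5 and 3-2 were sampled at 90 and 240 min. Each of these 5 groups holds 2 arrays, 1 per independently transformed line. The comparison of constructs joins construct and line, and no uninduced mutant array was analysed here. The comparison with 0 min joins induction, vapour and elapsed time. Transcripts of KLU were not analysed here, so the induction of the transgenes could not be checked. The values are log2 intensities, and the array medians lay between 5.93 and 6.05.

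Glucomannan is a hemicellulose of the plant cell wall, with a backbone of mannose and glucose. Proteins of the CSLA family polymerise this backbone in the Golgi from GDP-mannose and GDP-glucose. The mannose supply depends on phosphomannose isomerases, phosphomannomutase and GDP-mannose pyrophosphorylase. Proteins of the trichome birefringence-like (TBL) family, among them TBL23, TBL25 and TBL26 in Arabidopsis, add acetyl groups to mannan. The sister CSLC family makes the glucan backbone of xyloglucan, the main hemicellulose of growing walls in Arabidopsis.

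With wild-type KLU the CSLA01 level was lower at each later time in both lines. It was 9.64 in line 3-1 and 9.34 in line 4-3 at 0 min. At 90 min it was 7.32 and 7.60, and at 240 min 5.98 and 5.55, in the same order of lines. With mutant KLU it was 7.91 in line 1-5 and 8.19 in line 3-2 at 90 min, and 8.24 and 8.49 at 240 min. The uninduced arrays were the highest of the 10 and the wild-type KLU arrays at 240 min the lowest, with the mutant arrays at both times in between.

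**Figure D1:**
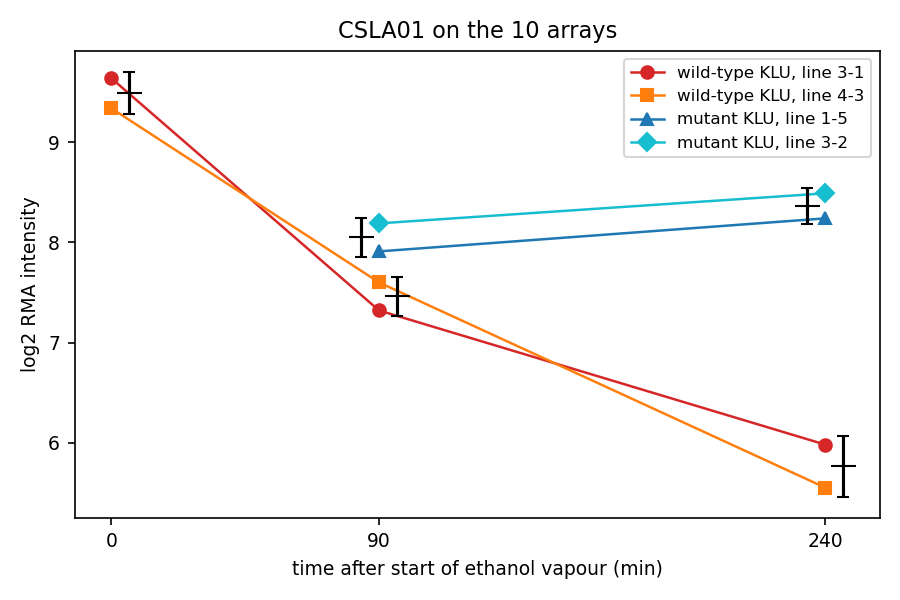
CSLA01 level (log2 RMA intensity) against time of ethanol vapour in minutes, with a point per array, lines joining the arrays of a transformed line, and black bars for group mean ± SD (2 arrays each). Wild-type KLU lines descend from 9.64 and 9.34 to 5.98 and 5.55, while the mutant lines stay between 7.91 and 8.49.

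The group means were 9.49 ± 0.21 uninduced, 8.37 ± 0.18 with mutant KLU at 240 min, 8.05 ± 0.20 with mutant KLU at 90 min, and for wild-type KLU 7.46 ± 0.20 at 90 min and 5.77 ± 0.30 at 240 min (SD, n = 2 each). No 2 groups overlapped, but the steps between neighbours in this order were unequal. The step from wild-type KLU at 90 min to 240 min was 1.70 log2 units, with 1.34 between the nearest arrays. The step from the uninduced group to mutant KLU at 240 min was 1.13, with 0.85 between the nearest arrays. The 2 mutant groups were 0.32 apart, with 0.05 between their nearest arrays, and mutant and wild-type KLU at 90 min were 0.59 apart, with 0.31. The pooled SD within groups was 0.22. Of these 4 steps, the one between the mutant groups was the closest to the spread between lines.

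At 240 min CSLA01 was lower with wild-type than with mutant KLU by a log2 difference of -2.60 (SE 0.209, 6.06-fold on the linear scale). This difference had rank 3 from the lowest among 22746 probe sets, control probe sets left out. Of all probe sets, 20.1% were lower without overlap of the arrays in this comparison, so the absence of overlap alone is common among them. At 90 min the same difference was -0.59 (SE 0.209, 1.51-fold), rank 552 from the lowest, where 14.3% of all probe sets were lower without overlap.

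Against the uninduced plants of the same lines, CSLA01 differed by -2.03 at 90 min (SE 0.209, 4.08-fold) and by -3.73 at 240 min (SE 0.209, 13.2-fold), ranks 21 and 2 from the lowest. Of all probe sets, 19% and 26.4% were lower without overlap in these comparisons. In line 3-1 the change was -2.32 by 90 min and -3.66 by 240 min, and in line 4-3 -1.74 and -3.79. The changes from 0 min in the 2 lines thus lay further apart at 90 min than at 240 min. Each rests on a single array per line and time, so a difference between lines cannot be told apart from the spread of single arrays. The mean difference at 90 min was 54.5% of that at 240 min on the log2 scale. Between 90 and 240 min the change with wild-type KLU was -1.34 in line 3-1 and -2.05 in line 4-3, a mean of -1.70, whereas with mutant KLU it was 0.33 in line 1-5 and 0.30 in line 3-2, a mean of 0.32. Of all probe sets, 16% were lower without overlap in the first of these changes and 13.4% were higher in the second.

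The level with mutant KLU was also below that of the uninduced wild-type KLU plants, which are other lines. The difference was -1.44 at 90 min (2.71-fold) and -1.13 at 240 min (2.18-fold), each with SE 0.209, ranks 40 and 137 from the lowest, and 18.5% and 20.9% of all probe sets were lower without overlap. The difference at 240 min corresponds to 30.2% of that with wild-type KLU on the log2 scale. These comparisons share the uninduced arrays, so 2 arrays set the upper end of both. In pooled tissue, fewer cells of a type that contain the transcript and less transcript per cell cannot be told apart.

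The difference between the 2 lines of a group was 0.30 at 0 min, -0.28 at 90 min and 0.43 at 240 min for line 3-1 minus line 4-3. It was 0.28 and 0.25 for line 3-2 minus line 1-5 at 90 and 240 min. The median size of such differences over all probe sets was between 0.17 and 0.25. Line 3-2 was the higher mutant line at both times, whereas the order of the wild-type lines changed at 90 min.

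The full pattern was uncommon among the 22746 probe sets. Both wild-type KLU arrays at 240 min lay below all 8 other arrays in 1306 probe sets (5.74%), and both uninduced arrays lay above all 8 others in 1372 (6.03%). Both held in 278 (1.22%). The order of CSLA01, with the uninduced arrays highest, then the 4 mutant arrays, then the wild-type KLU arrays at 90 min and at 240 min without overlap, was found in 60 probe sets (0.264%). The gap of 1.34 between the highest wild-type KLU array at 240 min and the lowest other array had rank 3 in size. CSLA01 is a member of each of these sets, which describe its pattern and are not a test of it.

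Markers of particular cells in the inflorescence were followed beside CSLA01. Of the 17 listed pollen markers 8 were measured, and their mean log2 level was 5.26 and 4.56 in the uninduced lines 3-1 and 4-3, 6.26 and 4.98 at 90 min and 5.59 and 4.96 at 240 min. With mutant KLU it was 4.97 and 5.48 in lines 1-5 and 3-2 at 90 min, and 5.01 and 5.07 at 240 min. Line 3-1 had the higher pollen mean at all 3 times, whereas CSLA01 was higher in it at 0 and 240 min and lower at 90 min. Of the 8, TUA1, a pollen tubulin gene, and AGL30, a pollen MADS-box gene, rose with wild-type KLU against uninduced at 90 and 240 min by limma, where 1.11% and 3.67% of all probe sets rose. TUA1 rose by 2.29 and 1.99 log2 units and AGL30 by 1.77 and 1.73. The mean over the 8 includes both genes, and its rise in line 4-3 was not shared by all members. In that line AGL65 was 5.46 uninduced, 5.04 at 90 min and 5.10 at 240 min, and AGL66 was 4.04, 3.66 and 3.63. There MGH3 lay between 4.28 and 4.38, ANX1 between 3.26 and 3.47, ANX2 between 2.98 and 3.08 and AGL104 between 3.09 and 3.24. TUA1 also rose by 1.61 against mutant KLU at 240 min by limma, where 0.721% of all probe sets rose. The marker lists were written with earlier results of these data known, so the calls of TUA1 and AGL30 are not independent of that choice. The other 6 did not pass. At 240 min against uninduced AGL65 differed by -0.44 (SE 0.195), AGL104 by -0.41 (SE 0.753) and AGL66 by -0.22 (SE 0.700). ANX1 differed by 0.01 (SE 0.287), MGH3 by 0.07 (SE 1.03) and ANX2 by 0.22 (SE 0.430). The absence of a call does not show that these 6 kept their level. The median over the 8 was 0.04 at 240 min against uninduced, 0.42 at 90 min against uninduced and -0.11 between constructs at 240 min. MGH3, a histone gene of sperm cells, ranged from 4.28 to 7.02, with its lowest values in line 4-3. The tapetum, the tissue that nourishes pollen, was represented by 2 of 11 listed markers. AMS, a tapetum transcription factor gene, lay between 4.11 and 4.95 on all arrays, and AT5G07230 between 9.64 and 10.82. The part of such cells in the CSLA01 differences was not tested. Listed floral organ identity and carpel genes have no probe set of their own in the gene table, so the tissue was not checked against them.

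CSLA01 was then set beside the other genes of wall polysaccharide synthesis. Of 72 listed genes of mannan synthesis and acetylation, GDP-mannose supply, mannan breakdown, other cellulose synthase-like families, cellulose synthesis, and xyloglucan and xylan synthesis, 15 were measured under a name of their own. Cellulose synthases and endo-beta-mannanases had 0 members with a probe set of their own in the gene table. That table does not list 8730 of the probe sets, so the array may still hold probes for them. In limma's moderated test, with p-values adjusted over all 22746 probe sets by Benjamini-Hochberg and a threshold of 0.05, TBL26 alone fell with wild-type against mutant KLU at 240 min, 1 of 15. Of all probe sets 0.413% fell and 0.721% rose. None of the 15 rose. At an unadjusted p under 0.05 there were 6 of the 15 genes and 13% of all probe sets. Their median difference was -0.38, and the median over all probe sets was 0.00. Against the uninduced plants, TBL26 and the xyloglucan glucan synthase gene CSLC5 fell at 240 min, 2 of 15, where 3.15% of all probe sets fell and 3.67% rose. At an unadjusted p under 0.05 there were 7 of the 15 and 22.1% of all probe sets. The median was -0.40, against -0.03 over all probe sets.

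**Figure D2:**
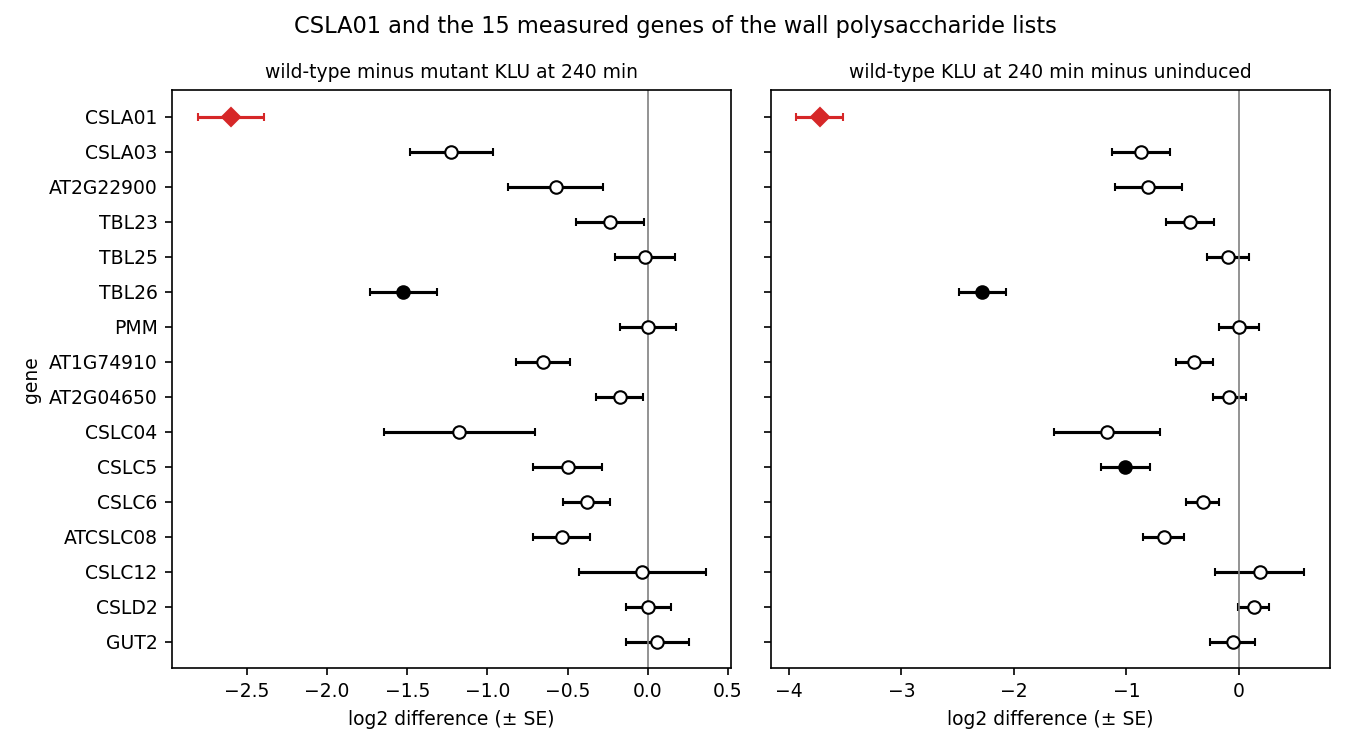
Log2 difference ± SE for CSLA01 (red diamond, described with no test) and the 15 measured genes of the lists, between constructs at 240 min (left) and between 240 min and uninduced plants with wild-type KLU (right). Filled circles passed limma's adjusted threshold, TBL26 in both panels and CSLC5 in the right one, and open circles did not.

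TBL26, a mannan acetyltransferase gene, had the time course closest to that of CSLA01 among the 15. Its level was 10.05 and 9.69 in the uninduced lines 3-1 and 4-3, 8.75 and 8.57 at 90 min, and 7.43 and 7.75 at 240 min. The mutant lines 1-5 and 3-2 had 8.81 and 9.28 at 90 min, and 9.08 and 9.15 at 240 min. As for CSLA01, the uninduced arrays were highest and the wild-type KLU arrays at 240 min lowest, without overlap with any other group.

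The log2 difference of TBL26 between wild-type and mutant KLU at 240 min was -1.53 (SE 0.208, limma adjusted p = 0.023). The adjusted p rose to between 0.0967 and 0.181 without any 1 of the 4 arrays compared, and was 0.0861 in a fit of those arrays alone. Against the uninduced lines TBL26 fell by 2.28 log2 units at 240 min (SE 0.208, limma adjusted p = 0.00408), and it stayed past the threshold under each of 16 alternatives. At 90 min the change was -1.21 (SE 0.208, limma adjusted p = 0.0403), against 0.514% of all probe sets that fell. It was called under 7 of 16 alternatives, with an adjusted p of up to 0.211 without the uninduced array of line 3-1. TBL26 was among the genes already known to fall in these comparisons when the list was written, so its calls are not independent of that choice.

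With mutant KLU the TBL26 differences from the uninduced lines were -0.83 at 90 min and -0.76 at 240 min, with limma adjusted p-values of 0.393 and 0.311. Between 90 and 240 min TBL26 changed by -1.07 with wild-type KLU (limma adjusted p = 0.253) and by 0.07 with mutant KLU (limma adjusted p = 1). The test of the difference between these changes gave -1.14 (SE 0.294, limma adjusted p = 1.00).

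**Figure D3:**
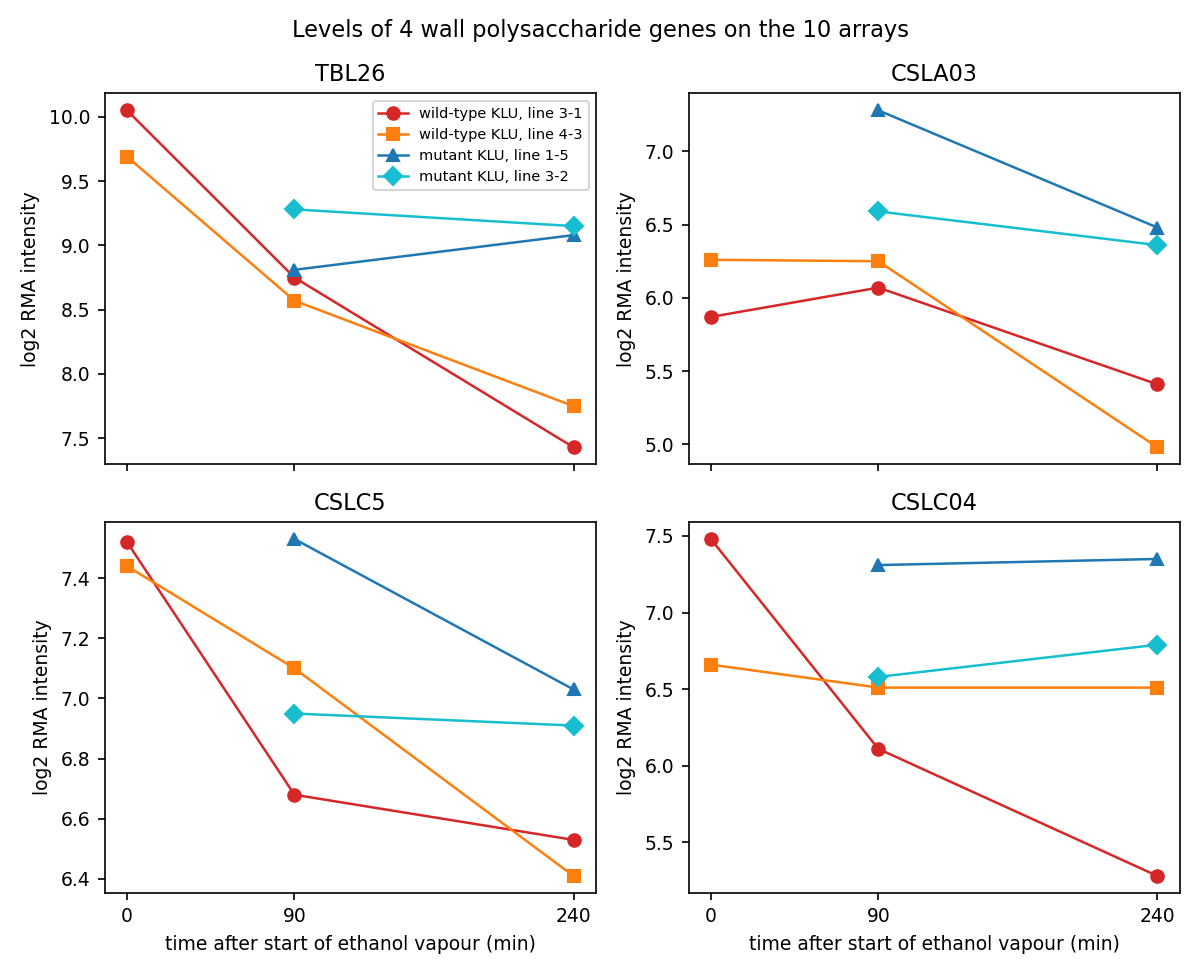
Level (log2 RMA intensity) of TBL26, CSLA03, CSLC5 and CSLC04 against time of ethanol vapour in minutes, with a point per array and a line per transformed line. TBL26 descends in both wild-type KLU lines to 7.43 and 7.75 at 240 min, while CSLA03 in those lines stays near its uninduced level at 90 min and CSLC04 differs between the wild-type lines.

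CSLA03, the other measured gene of the CSLA family, did not follow the CSLA01 time course at 90 min. Its level was 5.87 and 6.26 in the uninduced lines 3-1 and 4-3, 6.07 and 6.25 after 90 min of wild-type KLU, and 5.41 and 4.98 at 240 min. In the mutant lines 1-5 and 3-2 it was 7.28 and 6.59 at 90 min, and 6.48 and 6.36 at 240 min. The wild-type KLU arrays at 240 min were the lowest here too, but the mutant arrays and not the uninduced ones were the highest. No CSLA03 difference passed the test. The difference between wild-type and mutant KLU at 240 min was -1.23 (SE 0.26, limma adjusted p = 0.0815), and that between wild-type KLU at 240 min and uninduced was -0.87 (limma adjusted p = 0.0958). The difference from uninduced at 90 min was 0.10 in wild-type and 0.87 in mutant KLU lines, with limma adjusted p-values of 0.968 and 0.508.

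The other measured genes of the mannan list did not pass in any comparison. AT2G22900, listed here with mannan synthesis and with no other name in the tables used, differed by -0.58 between constructs at 240 min (SE 0.299) and by -0.81 from uninduced (SE 0.299). The mannan acetyltransferase genes TBL23 and TBL25 differed by -0.24 (SE 0.21) and -0.02 (SE 0.188) between constructs at 240 min. At 90 min TBL25 differed from uninduced by 0.58 with wild-type KLU (limma adjusted p = 0.255), in the opposite direction to TBL26 and CSLA01. In that comparison the median over the 5 measured genes of the mannan list was 0.10, and at 240 min it was -0.81.

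None of the 3 measured genes of GDP-mannose supply passed the test in any comparison. PMM, the phosphomannomutase gene, lay between 9.09 and 9.49 on all arrays and differed by 0.00 (SE 0.174) between constructs at 240 min and from uninduced at 240 min. AT2G04650 lay between 5.55 and 5.98. AT1G74910 was 8.26 and 8.08 in the wild-type KLU lines at 240 min and 8.89 and 8.76 in the mutant lines, a difference of -0.66 (SE 0.168, limma adjusted p = 0.135), without overlap of the arrays. The last 2 genes have no other name in the tables used. The absence of a call does not show that these genes kept their level.

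The measured CSLC genes, of the xyloglucan backbone family, were CSLC04, CSLC5, CSLC6, ATCSLC08 and CSLC12. CSLC5 was 7.52 and 7.44 in the uninduced lines 3-1 and 4-3, 6.68 and 7.10 at 90 min, and 6.53 and 6.41 at 240 min. It was 7.53 and 6.95 with mutant KLU lines 1-5 and 3-2 at 90 min, and 7.03 and 6.91 at 240 min. CSLC5 thus fell by 1.01 log2 units from uninduced to 240 min with wild-type KLU (SE 0.217, limma adjusted p = 0.0364). That call held under 9 of 16 alternatives, with an adjusted p of up to 0.176 without the uninduced array of line 3-1. Between constructs at 240 min CSLC5 differed by -0.50 (limma adjusted p = 0.392).

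ATCSLC08, another gene of the CSLC family, differed by -0.67 from uninduced at 240 min (SE 0.178, limma adjusted p = 0.0685). With the line as a block its limma adjusted p was 0.0212. That fit called 2689 of all probe sets, against 835 higher and 716 lower without the block. CSLC6 differed by -0.32 (limma adjusted p = 0.254). CSLC04 was 5.28 in line 3-1 and 6.51 in line 4-3 with wild-type KLU at 240 min, after 7.48 and 6.66 uninduced, so most of its mean difference of -1.18 (SE 0.471, limma adjusted p = 0.196) came from line 3-1. CSLC12 ranged from 3.90 to 5.37 with its highest value in line 3-1 at 90 min, and differed by 0.19 (SE 0.397). CSLD2, of a family known for tip growth, differed by 0.13 (SE 0.141), and GUT2, a xylan backbone synthesis gene, by -0.06 (SE 0.198).

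In the 5 remaining comparisons none of the 15 genes was called by limma. The share of all probe sets called there was 0.0044% for the constructs at 90 min, 0% for each change from 90 to 240 min, and 0.0396% and 0.154% for mutant KLU at 90 and 240 min against uninduced. At an unadjusted p under 0.05 there were 3 of the 15 genes between constructs at 90 min, where 5.86% of all probe sets were under it. Between 90 and 240 min there were 5 with wild-type KLU, against 10.2% of all probe sets, and 0 with mutant KLU, against 2.15%. Mutant KLU against uninduced gave 2 at 90 min and 2 at 240 min, against 6.6% and 7.76%.

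Of the 3 genes on each side of CSLA01 on its chromosome, AT4G16610 was measured, with PGSIP8 lying between it and CSLA01. AT4G16610 was 7.08 and 7.20 in the uninduced lines 3-1 and 4-3, 6.82 and 6.69 at 90 min and 6.41 and 6.58 at 240 min. In mutant lines 1-5 and 3-2 its level was 6.96 and 6.86 at 90 min, and 7.39 and 7.12 at 240 min. It thus fell by 0.65 log2 units from uninduced to 240 min with wild-type KLU (SE 0.143, limma adjusted p = 0.0403). That call held under 3 of 16 alternatives, and the adjusted p was 0.183 when the 240 min array of line 3-1 was left out. Between constructs at 240 min its difference was -0.76 (SE 0.143, limma adjusted p = 0.0584).

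The genes whose profiles over the 10 arrays were most like that of CSLA01 were ranked by Pearson's r among 1-gene probe sets with at least 1 log2 unit between the highest and lowest array. The 10 highest were AT1G10850 (r = 0.989), AT5G13140 (0.977), TBL26 (0.973), AT5G49170 (0.969), AT5G21100 (0.967), AT4G14695 (0.962), AT5G62140 (0.960), AT1G67360 (0.957), AT3G28040 (0.956) and RALFL34 (0.948), a gene of the RALF family of signalling peptides. The arrays share lines and RNA extracts across genes, and r is given as a measure of likeness with no test. Over the group means r of the 10 genes ran from 0.965 (AT5G62140) to 1.00 (AT1G10850). With the group means taken out it ran from -0.436 (AT3G28040) to 0.879 (AT5G49170), and was 0.166 for AT1G10850 and 0.14 for TBL26. The likeness from array to array within groups thus varied between these genes. In all 10 both wild-type KLU arrays at 240 min were below the 8 others, and in 9, all except AT5G49170, both uninduced arrays were above the 8 others.

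**Figure D4:**
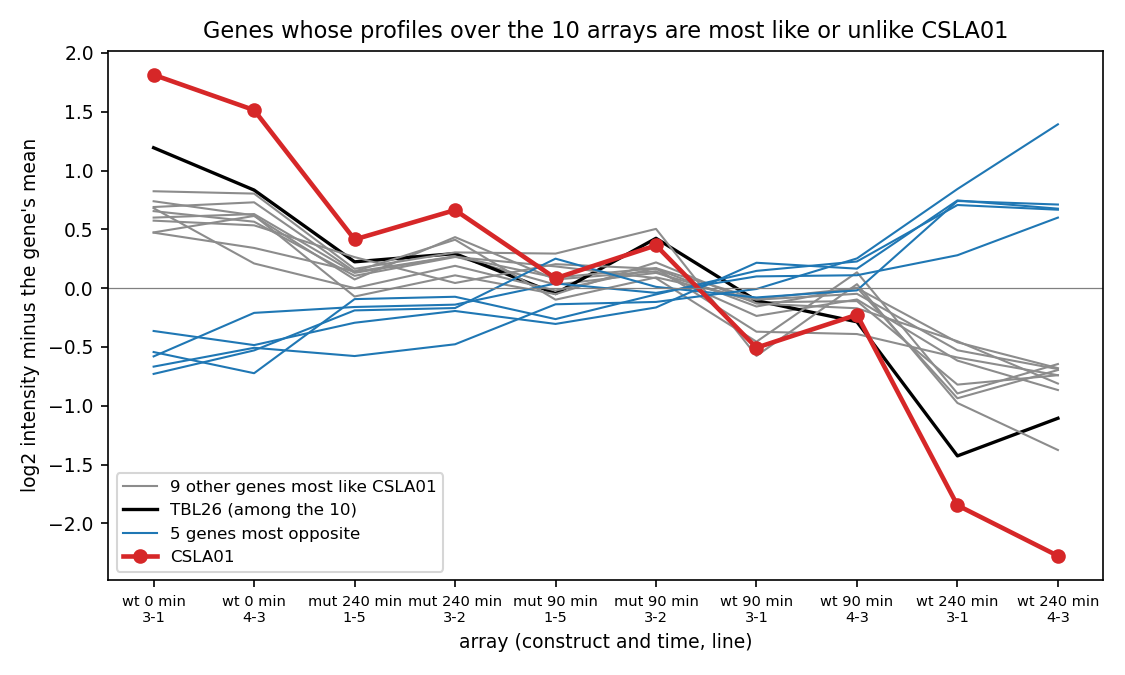
Log2 intensity minus each gene's own mean for CSLA01 (red), the 10 genes most like it (grey, with TBL26 in black) and the 5 most opposite (blue), by array, with construct, time and line on the horizontal axis. The 10 genes descend with CSLA01 from uninduced to wild-type KLU at 240 min over a smaller range, between 1.16 and 2.62 log2 units against 4.09 for CSLA01.

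The group means of 7 of the 10 genes lay in the order of CSLA01, whereas in AT5G21100, AT4G14695 and AT3G28040 mutant KLU at 90 min was above mutant KLU at 240 min. The order of arrays without overlap described for CSLA01 was also found in 7, the exceptions being AT5G49170, AT1G67360 and RALFL34. AT1G10850, the most alike, was 8.00 and 8.03 in the uninduced lines, 7.28 and 7.29 after 90 min of wild-type KLU and 6.58 and 6.66 at 240 min, in the order of lines 3-1 and 4-3. With mutant KLU it was 7.43 and 7.53 at 90 min and 7.53 and 7.67 at 240 min, in the order of lines 1-5 and 3-2. Its difference between constructs at 240 min was -0.98, and over the 10 genes that difference ranged from -1.53 (TBL26) to -0.65 (AT4G14695). The difference from uninduced at 240 min ranged from -2.28 (TBL26) to -1.02 (AT5G49170 and AT1G67360). These genes were chosen for their likeness, so their differences follow from the choice.

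The 5 most opposite profiles belonged to AT3G15110 (r = -0.953), AT3G02760 (-0.951), AT1G15480 (-0.948), AT3G61300 (-0.943) and AT5G59950 (-0.942). With the group means taken out, r was 0.768 for AT3G15110 and 0.73 for AT5G59950. It was -0.755 for AT3G02760, -0.411 for AT1G15480 and -0.404 for AT3G61300. AT3G61300 had the widest range of them, from 3.52 and 3.68 in the uninduced lines 3-1 and 4-3 to 5.03 and 5.58 with wild-type KLU at 240 min. Its difference between constructs at 240 min was 1.65, and over the 5 genes that difference ranged from 0.59 to 1.65.

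Likeness measured by distance instead of r also takes the size of the changes into account. By the root mean square distance between centred profiles the nearest were AT1G60590 (0.419 log2 units), BSMT1 (0.426), a benzoic and salicylic acid methyltransferase gene, and TBL26 (0.524). Their highest and lowest arrays were 3.91, 3.82 and 2.62 log2 units apart. Of the 10 nearest genes by distance, 2, TBL26 and AT5G21100, were also among the 10 by r. Among genes of the wall polysaccharide lists besides TBL26, r was 0.842 for CSLC5, 0.821 for ATCSLC08, 0.734 for CSLC6 and 0.716 for AT2G22900. It was 0.665 for CSLC04, 0.626 for AT1G74910, 0.568 for CSLA03, 0.468 for TBL23, 0.339 for AT2G04650 and 0.232 for GUT2. Negative values were -0.035 for TBL25, -0.103 for PMM, -0.207 for CSLC12 and -0.268 for CSLD2.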

How the data were processed

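RNA from pooled inflorescences was biotin-labelled and hybridised to Affymetrix arrays, 1 per sample. The deposited values are log2 intensities made by the authors with RMA, per the submitters' processing notes, in a version not given in the sources used here, and were used without further normalization. The array holds 22810 probe sets, of which 64 are controls, and the other 22746 were tested. The gene table names 1 gene for 13513 of these, several for 503, and does not list 8730, and it can be old. Of the first, 13436 matched a locus in a RefSeq table (assembly TAIR10.1), used for names and gene order.

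Groups came from the sample titles. Differences were fitted with limma 3.58.1 (R 4.3.3), in which each group had its mean, all 10 arrays shared the estimate of the spread and variances were moderated. Tests were two-sided and adjusted by Benjamini-Hochberg over all probe sets, with a threshold of 0.05. The fit was checked on simulated data. Named genes are CSLA01, members of the lists, the 10 most and 5 least like profiles and the 3 genes on each side. The gene and the lists were chosen with earlier results of these data known. The replicate labels name lines that recur at each time, which pairs the arrays. The line difference correlated between times with 0.633, 0.475 and 0.606 for wild-type and 0.348 for mutant KLU. Alternatives were quantile normalization, median centring, probe sets above the median level, only the compared groups, trended and robust variances, the line as a fixed or random block, and leaving out each array. The number of arrays limits the precision. No label gives a batch or scan date. Figures were drawn with matplotlib 3.10.9.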

Additional observations from a re-analysis of the deposited data

Results flagged for a closer look

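From 90 to 240 min CSLA01 moved down in both wild-type KLU lines and up in both mutant lines, and the difference of these changes was -2.01 log2 units. The difference was not tested for CSLA01, because the gene was chosen with its pattern known. Over all probe sets limma's test of this difference called 0, with 603 at an unadjusted p under 0.05. Lines of the 2 constructs moved in opposite directions in 1965 of 22746 probe sets (8.64%), and in 922 (4.05%) downwards with wild-type KLU.

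Opposite moves were seen in 12 of the 31 named genes checked. Besides CSLA01 these were 3 of the 15 genes of the wall polysaccharide lists (CSLC6, ATCSLC08 and GUT2), the neighbour AT4G16610, 4 of the 10 genes most like CSLA01 and 3 of the 5 most opposite. For the list genes and AT4G16610 the difference of the changes was -0.28, -0.25, 0.37 and -0.61 in that order, each with a limma adjusted p of 1.00. The likeness genes were chosen for following or mirroring CSLA01, and their differences were not tested. The difference was -0.79 for AT1G10850, -0.82 for AT5G49170, -0.36 for AT5G62140 and -0.55 for AT1G67360. It was 0.49 for AT3G02760, 1.09 for AT1G15480 and 1.40 for AT3G61300.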

How the results depend on the processing

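The CSLA01 differences were also taken under quantile normalization, median centring, the line as a block and leaving out each of the 10 arrays. The block and leaving out an array of another group cannot move a difference of 2 group means. Leaving out a compared array moves it by an amount that the difference between the lines fixes. All moves were under 1 SD between lines, but for these settings the design set that. Under quantile normalization and median centring the difference between constructs at 240 min was -2.57 and -2.55. Over these 13 alternatives the difference between constructs at 240 min ranged from -2.82 to -2.39, and at 90 min from -0.73 to -0.45. Against uninduced it ranged from -3.94 to -3.51 at 240 min and from -2.18 to -1.88 at 90 min with wild-type KLU. From 90 to 240 min it ranged from -1.91 to -1.48 with wild-type and from 0.18 to 0.46 with mutant KLU. With mutant KLU against uninduced it ranged from -1.28 to -0.98 at 240 min and from -1.59 to -1.29 at 90 min.

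The number of called genes of the wall polysaccharide lists depended on single arrays. Between constructs at 240 min it was 1, and 0 in a fit of the compared groups alone, and without single arrays between 0 and 1. It was 0 without any 1 of the 4 arrays compared. With wild-type KLU at 240 min it was 2 against uninduced, and 1 in a fit of the compared groups alone, and without single arrays between 1 and 2. It was 1 without any 1 of the 4 arrays compared and without either mutant array at 240 min. With the line as a replicate block it was 3, where 2689 of all probe sets were called, against 835 higher and 716 lower without the block. At 90 min against uninduced it was 1, and 0 in a fit of the compared groups alone, and without single arrays between 0 and 1. It was 1 without either mutant array at 90 min and 0 without any 1 of the 8 other arrays. Over all probe sets, the fit of the compared groups alone called 0 between constructs at 240 min, so no gene passed there. The fit of all 10 arrays called 164 higher and 94 lower. Against uninduced with wild-type KLU, the compared groups alone gave 424 calls at 240 min and 59 at 90 min. Calls over all probe sets without single arrays are not given here. Fits of the compared groups alone or without an array hold fewer arrays, and the causes of the changed counts were not tested. The replicate block changed no other call of the wall polysaccharide genes. Of the 10 genes most like CSLA01 by r, 2 stayed under the distance, 5 under Spearman's rho and 5 under r over the group means. The settings for TBL26, CSLC5 and AT4G16610 singly were chosen after seeing the data.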
